A study of Homo sapiens with 4 samples.

Results

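ES2 cells given the GLI inhibitor GANT61 were compared with ES2 cells given its solvent DMSO, using the 2 ES2 arrays out of the 4 arrays of the series. The GANT61 array came from cells kept for 48 h with 20 µM of the compound, and the DMSO array from cells kept for 48 h with solvent alone. ES2 is an established human ovarian cancer line, usually classed as clear cell carcinoma. The other 2 arrays came from the line H4, commonly described as a neuroglioma, under the same 2 treatments, although the labels give it the same ovarian source as ES2. Each group was 1 Illumina HumanHT-12 V4 BeadChip, so the values below carry no replicate error and no test, and a difference between the 2 arrays holds whatever differed between 2 cultures and 2 hybridizations as well as the treatment. By its title the series asks if inhibiting the Hedgehog pathway slows the growth of tumour cells by way of autophagy.

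Hedgehog ligands bind the receptor PTCH1, which frees the membrane protein SMO and lets GLI1, GLI2 and GLI3 act on their target genes, among them GLI1, PTCH1 and HHIP themselves. GANT61 is a small molecule found by its block of GLI-driven transcription. Other programmes of cultured tumour cells that a compound can alter include the sterol pathway, whose genes are driven by SREBP factors when membrane cholesterol is low, and the integrated stress response, in which ATF4 drives genes for amino acid supply and tRNA charging.

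Of 47229 probes, 14660 were detected on both ES2 arrays, 1845 on 1 of them and 30724 on neither, at a detection p under 0.01. A gene was read from its brightest probe, and 12213 genes were measured, 11132 of them detected on both arrays and 1081 on 1. All ratios are GANT61 minus DMSO on the log2 scale of a background-corrected, quantile-normalized signal, so that 1.5-fold stands at 0.58 and 2-fold at 1. A smaller line was set at 0.32 and -0.32, and genes at or beyond it are called past 0.32 or past -0.32 below. The median ratio over the measured genes was 0.003 with an SD of 0.199 across genes, and the central 95% of genes lay between -0.40 and 0.39. The same SD was 0.590 in H4. Named probes detected on neither ES2 array, which carry little besides noise, had an SD of 0.317, and 7.12% of them were past 1.5-fold.

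Probes of the same gene gave the only check on a single ratio. For the 2545 genes with a second probe also detected on both arrays, Pearson's r between the 2 ratios was 0.426 across genes, as a description over genes that share both arrays. Their differences gave an SD of 0.143 for 1 probe. The brightest probe was past 0.32 or -0.32 in 238 genes, and there the second probe had the same sign in 195 and was past the same line in 51. Past 1.5-fold there were 14 such genes. The second probe had the same sign in 11 of them, and only the serpin SERPINB7 was past 1.5-fold by both. A ratio of a single ES2 gene below about 0.3 was therefore hard to tell from the spread between probes. That spread holds no difference between cultures or hybridizations, so larger ratios are not thereby set apart from those.

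**Figure D1:**
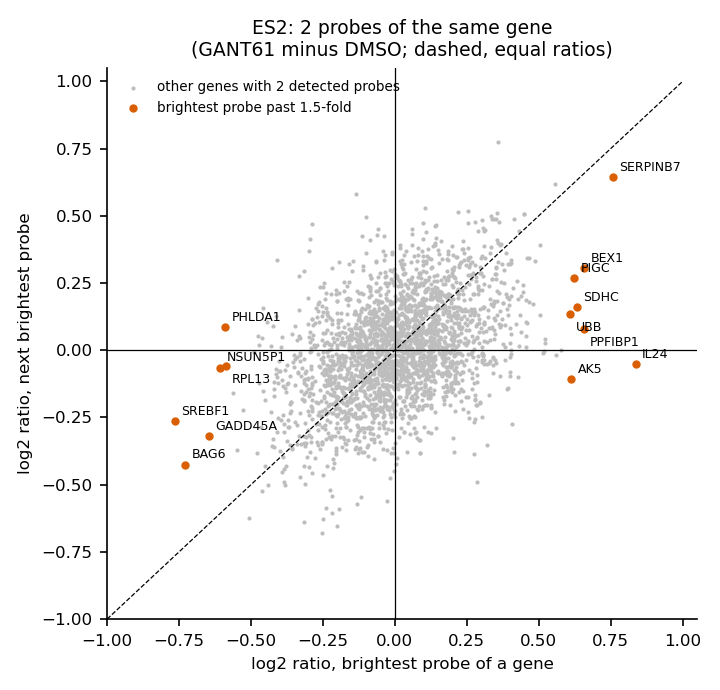
Log2 ratio (GANT61 minus DMSO) of the brightest probe of a gene on the x axis and of the next brightest probe on the y axis, for ES2 genes with 2 probes detected on both arrays, and the genes whose brightest probe passed 1.5-fold in orange. The orange points lie mostly closer to 0 on the y axis than on the x axis, and SERPINB7 is the one near the dashed line of equal ratios with 0.76 and 0.64.

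Markers were compared with the label of an epithelial ovarian line. Of 22 Müllerian and epithelial markers, the keratins KRT7, KRT8 and KRT18 and the chromatin subunit ARID1A were detected on both arrays, and PAX8, EPCAM and CDH1, which define epithelium of this origin, were detected on neither. Of 15 mesenchymal markers 9 were detected on at least 1 array, among them the intermediate filament VIM with a log2 signal of 13.60 on the GANT61 array and 13.68 on the DMSO array. Of 16 glial and neural markers 5 were detected on at least 1 array. TUBB3 had 10.61 with GANT61 and 10.89 with DMSO, and MBP had 9.02 with GANT61 and 8.90 with DMSO. ENO2 and SLC1A3 were also detected on both arrays and MAP2 on 1, while GFAP, SOX10 and OLIG2 were detected on neither. Of 15 blood cell markers CD68 and PPBP were detected. The median ratio was -0.09 over the epithelial markers measured, 0.20 over the mesenchymal ones and 0.21 over the glial and neural ones, and the part of marker differences in the results below was not tested. In a bulk culture, fewer cells of a kind and less RNA per cell cannot be told apart. Keratins went opposite ways: KRT7 had 9.38 with GANT61 and 9.10 with DMSO, a ratio of 0.28. KRT18 had a ratio of -0.29, with -0.19 at its second probe, and KRT8 had -0.25.

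Few ES2 genes stood far apart between the arrays. At 2-fold, 5 genes were higher with GANT61, which is 0.0409% of those measured, and 4 were lower, which is 0.0328%. The counts at 1.5-fold were 42 higher (0.344%) and 37 lower (0.303%), and of the 11132 genes detected on both arrays 28 were higher (0.252%) and 24 lower (0.216%). FCRLA and SPATC1 among the 5 and CRYM and CIMIP7 among the 4, named here after their values were seen, were detected on 1 array only, so that their bounds are 1.19-fold, 1.01-fold, 1.04-fold and 1.04-fold. Past 0.32 lay 593 genes (4.86%) and past -0.32 lay 630 (5.16%), and a ratio above 0 was found in 50.6% of all genes and one below 0 in 49.2%. The shares over all genes are the background for every count of a gene list below. Without background correction 16 genes were 1.5-fold higher and 9 were 1.5-fold lower in ES2. With the ES2 arrays scaled alone, without H4, these counts were 76 and 76. In H4 the share past 1.5-fold in either direction was 23.8%, against 0.647% in ES2. Over 5 equal groups of genes by mean signal, the SD of the ratios was 0.176 in the brightest and 0.216 in the dimmest.

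**Figure D2:**
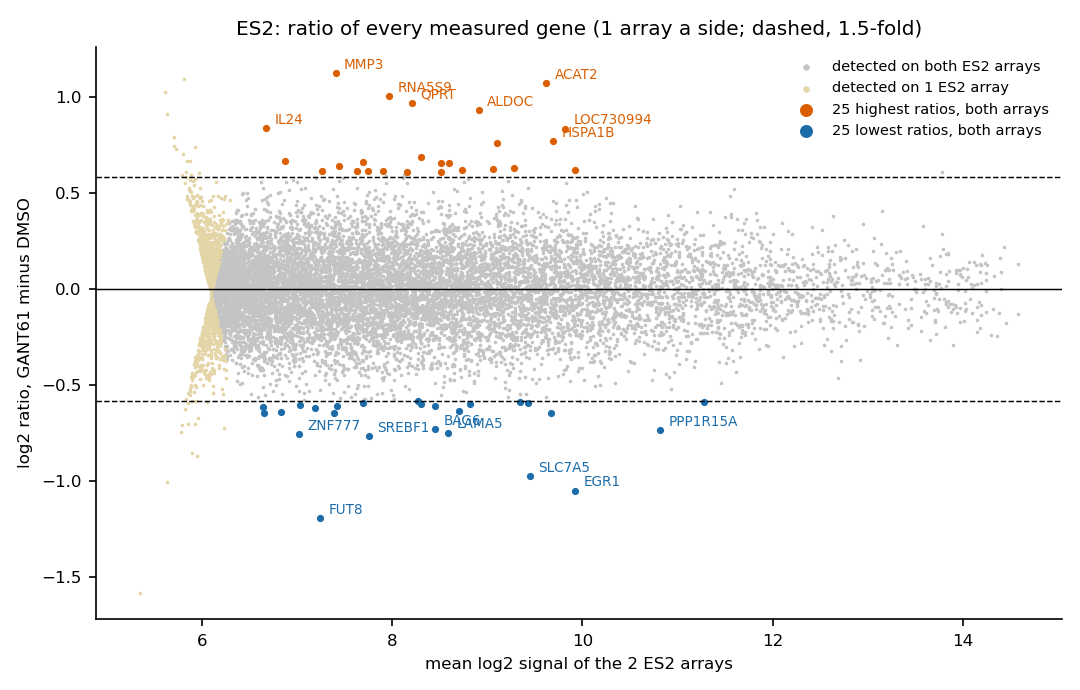
Log2 ratio in ES2 (GANT61 minus DMSO) against the mean log2 signal of the 2 arrays for the 12213 measured genes, each point a gene, with the 25 highest ratios among genes detected on both arrays in orange and the 25 lowest in blue. Most genes lie within the dashed lines at 1.5-fold, and of the coloured genes MMP3, ACAT2 and RNA5S9 at the top and FUT8 and EGR1 at the bottom lie past 2-fold.

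The Hedgehog pathway itself was sparsely measured. Of its 20 listed genes 8 were detected, 7 of them with a ratio below 0 and 2 past -0.32, with a median of -0.17. None of the ligands SHH, IHH and DHH was detected on either array, nor were the receptor PTCH1, the co-receptors CDON, BOC and GAS1, the transducer SMO, the GLI inhibitor SUFU, the kinase subunit PRKACA and GLI1, so that a change in those genes was not detectable. GLI2, the main activator among the GLI factors, had a log2 signal of 6.32 on the GANT61 array and 6.67 on the DMSO array, a difference of -0.35. GLI3, mostly a repressor, had 6.75 with GANT61 and 6.94 with DMSO. Both factors were thus lower on the GANT61 array, GLI3 by little more than the spread of a probe, and both sat close to the lowest signals of detected genes, which were 6.08 on the GANT61 array and 6.11 on the DMSO array.

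The other measured pathway genes were regulators and HHIP, which binds and sequesters the ligands. HHIP had 6.59 with GANT61 and 6.83 with DMSO, and its second probe was not detected on either array, so it gave no check. GPR161, a receptor in the cilium that restrains the pathway, had 6.34 with GANT61 and 6.66 with DMSO. The casein kinase CSNK1A1, which phosphorylates GLI factors, was lower by all 3 of its detected probes, with ratios of -0.15, -0.24 and -0.10. STK36 and GSK3B had a ratio of -0.08 each, and the ciliary kinesin KIF7, which scaffolds GLI factors, had 0.04.

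Among 24 published GLI targets 15 were measured, 9 with a ratio above 0, and the median was 0.03. BCL2, the inhibitor of apoptosis, had 7.02 with GANT61 and 6.63 with DMSO (1.32-fold higher), and its second probe had a ratio of 0.19. The angiogenic factor VEGFA had 6.79 with GANT61 and 7.16 with DMSO (1.29-fold lower). These were the only 2 targets past 0.32 or -0.32. The polycomb protein BMI1 had a ratio of 0.25, the transcription factor SNAI2 0.21, the cyclin CCND1 -0.03 and the mitotic factor FOXM1 -0.03. No GLI target therefore showed a difference near that of the top ES2 genes.

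The gene with the highest ratio was MMP3, a matrix metalloproteinase that cleaves proteoglycans and other proteases. Its deposited intensity was 299.7 on the GANT61 array and 144.8 on the DMSO array, which gave 2.18-fold after background correction. ACAT2, the cytosolic acetyl-CoA acetyltransferase that makes acetoacetyl-CoA for the mevalonate pathway, had 1304 with GANT61 and 634 with DMSO (2.1-fold higher). The 5S ribosomal RNA gene RNA5S9 had 422 with GANT61 and 216 with DMSO (2.01-fold higher), and its near-identical copies can share the signal. QPRT, an enzyme of NAD synthesis from tryptophan, had 488 with GANT61 and 255 with DMSO (1.96-fold higher). The aldolase ALDOC had 775 with GANT61 and 414 with DMSO (1.91-fold higher). These 5 genes have 1 probe each that was detected on both arrays, so no second probe speaks to them.

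Further genes past 1.5-fold higher had a mixed record by second probe. SERPINB7, an inhibitor of serine proteases, had log2 signals of 9.48 with GANT61 and 8.72 with DMSO. The cytokine gene IL24 had 7.09 with GANT61 and 6.25 with DMSO by its brightest probe, but its second probe had a ratio of -0.05. The adenylate kinase AK5 likewise had 0.61 by 1 probe and -0.11 by the other, and PPFIBP1, a liprin of cell adhesion sites, 0.66 and 0.08. BEX1 had 0.66 and 0.30, SDHC, a membrane anchor of succinate dehydrogenase, 0.63 and 0.16, and PIGC, of glycolipid anchor synthesis, 0.62 and 0.27. For IL24 and AK5 the 2 probes thus disagreed in sign.

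The heat shock chaperone HSPA1B (0.77), the lysosomal sialidase NEU1 (0.69) and the endoplasmic reticulum chaperone HSPA5 (0.62) were also among the 25 highest. The others were the annexin ANXA10, the small GTPase RAB3B, the NAD-making enzyme NMNAT2, the tetraspanin TSPAN13, MAP3K7CL, MLLT11, RPAP2 and 3 sequences named by number, LOC730994, LOC729222 and LOC100133800, with ratios between 0.61 and 0.84. Bounds for genes detected on 1 array were small, at 1.33-fold higher or more for SCG5, which guides prohormone processing, 1.30-fold or more for the myosin light chain MYL5 and 1.28-fold or more for ATMIN.

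Among genes detected on both arrays the lowest ratio belonged to FUT8, the enzyme that adds core fucose to N-glycans. Its intensity was 128.0 on the GANT61 array and 275.5 on the DMSO array (2.29-fold lower). EGR1, an immediate early transcription factor that growth factor signalling induces, had 784 with GANT61 and 1607 with DMSO (2.07-fold lower). SLC7A5, which carries leucine and other large amino acids into the cell, had 587 with GANT61 and 1133 with DMSO (1.96-fold lower). SREBF1, the SREBP factor that drives fatty acid synthesis, had 203 with GANT61 and 334 with DMSO (1.70-fold lower), and its second probe had a ratio of -0.26. The laminin chain LAMA5 had 352 with GANT61 and 585 with DMSO (1.68-fold lower).

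The stress gene PPP1R15A, which directs the dephosphorylation of eIF2α, was 1.66-fold lower, and the ratio of BAG6, a chaperone for membrane proteins, was -0.73 with -0.43 at its second probe. GADD45A, a growth arrest gene, had -0.64 with -0.32 at the second probe. The ratio of the ribosomal protein RPL13 was -0.59 with -0.06 at its second probe, that of the pleckstrin-domain gene PHLDA1 -0.59 with 0.09, and that of the pseudogene NSUN5P1 -0.61 with -0.06. For PHLDA1 the probes thus disagreed in sign. The rest of the 25 lowest were ZNF777, HMGA1P8, the NF-kB modulator TNIP2, the chromatin subunit BICRA, LZTR1, UBALD1, WDR24, DDIT4, the arginine methyltransferase PRMT7, FAAP100, SMG5 of RNA decay, the chromatin regulator ANKRD11, the DNA polymerase subunit POLD1 and LTBP3, with ratios between -0.75 and -0.58. The largest bounds downward were 1.42-fold or more for the actin crosslinker FLNA, 1.33-fold or more for KLC2 and 1.32-fold or more for ZNF768.

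Genes of cholesterol synthesis were higher with GANT61 as a group. Of 21 listed enzymes 20 were measured, 17 had a ratio above 0, 9 were past 0.32 and none past -0.32, with a median of 0.28 beside 0.003 over all genes. The sterol demethylase CYP51A1 was the one enzyme not detected. Both branches of the pathway shared this, with a median of 0.26 over 9 enzymes of the mevalonate branch and 0.29 over 11 of the sterol branch. Besides ACAT2, FDPS, which makes farnesyl diphosphate, had log2 signals of 8.11 with GANT61 and 7.64 with DMSO (1.39-fold higher). HMGCS1, an early synthase of the mevalonate branch, was 1.27-fold higher.

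In the sterol branch EBP, the sterol isomerase, had 9.03 with GANT61 and 8.47 with DMSO (1.47-fold higher). LSS, which closes squalene epoxide to lanosterol, had 8.29 with GANT61 and 7.85 with DMSO (1.36-fold higher). Second probes were detected for 4 enzymes and went the same way in all 4. They had ratios of 0.44 for FDFT1, the squalene synthase, 0.26 for the squalene epoxidase SQLE, 0.32 for DHCR7, the last reductase, and 0.23 for the sterol oxidase MSMO1, beside 0.43, 0.42, 0.26 and 0.29 at the brightest probes. The 3 enzymes below 0 were HSD17B7, MVK and PMVK, with ratios from -0.15 to -0.02.

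The genes that sense, take up and export cholesterol did not share this. Of 15 such genes 12 were measured, 6 above 0 and 6 below, with a median of -0.06. SCAP, the escort of SREBP, had 8.99 with GANT61 and 9.38 with DMSO (1.31-fold lower). SREBF2, the SREBP factor of sterol synthesis, had 6.20 with GANT61 and 6.19 with DMSO, a ratio of 0.01. Both SREBF2 signals were close to the lowest of detected genes, so its ratio says little. INSIG1, which retains SCAP when sterols are plentiful, had -0.12 at its brightest probe and 0.04 at its second. NPC2, which carries cholesterol within the lysosome, was 1.40-fold higher, and NPC1, its partner in the lysosomal membrane, had a ratio of -0.26.

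Fatty acid synthesis genes lay slightly below 0. Of 23 listed 19 were measured, 6 above 0, with a median of -0.11, and SREBF1 was the only one past 0.32 or -0.32. FASN, the fatty acid synthase, had 11.00 with GANT61 and 11.29 with DMSO, and ACACA, which makes its substrate malonyl-CoA, had ratios of -0.22 and -0.20 by 2 probes. The desaturase SCD had 0.18 and FADS1 0.29.

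The integrated stress response had the lowest median of the 47 gene lists, at -0.31. The lists were chosen with earlier results of these data known, so this rank is a description. Of 21 genes 16 were measured, 12 with a ratio below 0, 6 past -0.32 and none past 0.32. Its transcription factors were mostly lower. ATF4, the central factor, had 11.41 with GANT61 and 11.73 with DMSO, and its second probe had a ratio of -0.64. DDIT3, also called CHOP, had 7.98 with GANT61 and 8.37 with DMSO (1.31-fold lower). CEBPB, a partner of both, had 10.68 with GANT61 and 11.19 with DMSO (1.43-fold lower), and ATF3 had 6.23 with GANT61 and 6.66 with DMSO. ATF5 and JDP2 had a ratio of 0.03 each.

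Several of its effectors were lower as well. Besides PPP1R15A, DDIT4, an inhibitor of mTORC1, had 8.15 with GANT61 and 8.76 with DMSO (1.53-fold lower). TRIB3, a pseudokinase that ATF4 induces, had a ratio of -0.31, and so did the secreted glycoprotein STC2. The sensor kinases EIF2AK1, EIF2AK2 and EIF2AK4, which phosphorylate eIF2α, had ratios of -0.04, 0.06 and 0.13. In H4 the same list had a median of 0.42 over 20 measured genes.

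Genes of amino acid supply, many of them known ATF4 targets, were lower as well. Of 16 amino acid transporters 9 were measured, 7 below 0 and 4 past -0.32, with a median of -0.25. SLC3A2, the heavy chain that pairs with SLC7A5, had 9.16 with GANT61 and 9.54 with DMSO, with a second probe at -0.50. SLC38A2, a glutamine carrier that amino acid shortage induces, had 9.08 with GANT61 and 9.62 with DMSO (1.46-fold lower). The glutamine carrier SLC1A5 had a ratio of -0.33. The glutamate carrier SLC1A3 went the other way, with 7.54 on the GANT61 array and 7.18 on the DMSO array (1.28-fold higher).

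Serine, asparagine and one-carbon enzymes had 12 of 16 measured genes below 0 and a median of -0.14. The alanine aminotransferase GPT2 had 7.62 with GANT61 and 8.16 with DMSO (1.46-fold lower), MTHFD1L of mitochondrial one-carbon metabolism had a ratio of -0.34, and the serine synthesis enzyme PSAT1 -0.30. ASNS, the asparagine synthetase, had -0.23 and -0.21 by 2 probes. All 20 cytosolic tRNA synthetases were measured, and 14 were below 0, none past 0.32 or -0.32, with a median of -0.10. The lowest was the seryl enzyme SARS1 at -0.32, and the highest the isoleucyl enzyme IARS1 at 0.21.

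**Figure D3:**
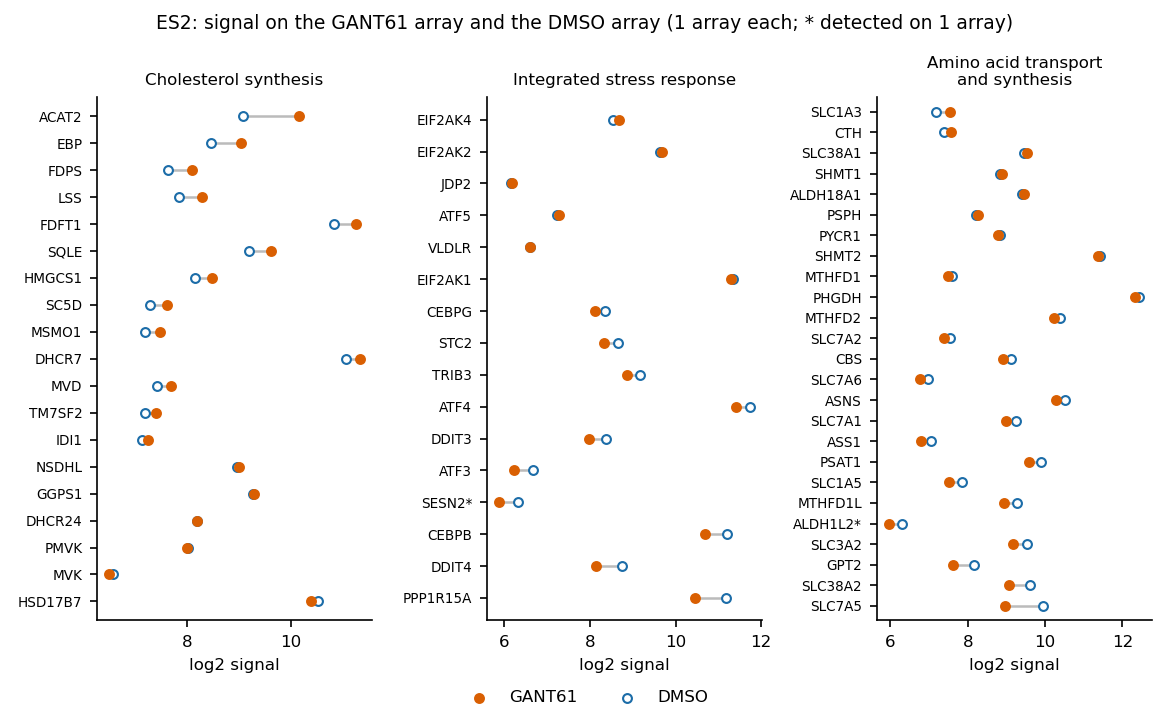
Log2 signal on the GANT61 array (filled orange) and on the DMSO array (open blue), 1 array each, for measured genes of cholesterol synthesis, of the integrated stress response, and of amino acid transport and synthesis, ordered by their ratio. ACAT2 has 10.15 with GANT61 and 9.08 with DMSO at the top of the first group, and PPP1R15A has 10.45 with GANT61 and 11.18 with DMSO at the bottom of the second.

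ATF4 and its partners are known to bind the amino acid response element, written TGATGNAA, and the sequences of 4 members are shown because they share this element while their ratios do not share a sign. Windows run from 250 bases before to 50 bases after each RefSeq start on GRCh38.p14, and the element was searched on both strands. Of 34961 such windows 3.62% hold it. Capitals mark the element, and the sequence is on the strand of the gene. ASNS lies at chr7:97872443-97872502 on the minus strand, ATF3 at chr1:212565190-212565249 on the plus strand, AARS1 at chr16:70289660-70289719 and IARS1 at chr9:92293698-92293736, both on the minus strand.
ASNS: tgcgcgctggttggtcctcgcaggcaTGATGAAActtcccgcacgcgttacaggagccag
ATF3: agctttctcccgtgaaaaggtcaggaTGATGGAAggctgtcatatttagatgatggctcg
AARS1: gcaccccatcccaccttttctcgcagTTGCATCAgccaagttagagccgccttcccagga
IARS1: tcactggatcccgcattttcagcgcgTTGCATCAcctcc
The element reads along the gene in ASNS and ATF3 and on the opposite strand in AARS1 and IARS1. The ratios of these genes were -0.23, -0.43, -0.18 and 0.21 in the order shown.

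Across the tRNA synthetases with a promoter window, 7 held the element, 6 of them below 0 with a median of -0.18, and 9 did not, 4 of them below 0 with a median of 0.01. Among the measured integrated stress response genes the order was the reverse, with -0.22 over 3 genes that held it and -0.31 over 12 that did not. Over all measured genes with a window, 234 held the element, with a median of 0.03, and 8115 did not, with a median of 0.

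Chaperones of the endoplasmic reticulum were near the background apart from HSPA5. Of 21 listed genes 19 were measured, 12 above 0, with a median of 0.08. HSPA5, the main chaperone of this compartment and the usual readout of its stress, had an intensity of 352.8 with GANT61 and 234.9 with DMSO (1.53-fold higher). DNAJB9, its co-chaperone, had a ratio of 0.31 and the oxidase ERO1A 0.23. The other large chaperone HSP90B1 had 11.88 with GANT61 and 12.06 with DMSO, and the factor XBP1 had ratios of -0.15 and -0.06 by 2 probes. HSPA5 thus stood apart from the genes usually induced with it.

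The promoters of HSPA5, HSP90B1 and CALR, which encodes the lectin chaperone calreticulin, are shown because they share the endoplasmic reticulum stress element, a CCAAT and a CCACG box with 9 bases of any kind between them, which was found on either strand in 0.0772% of the windows. HSPA5 lies at chr9:125241365-125241435 on the minus strand, HSP90B1 at chr12:103930190-103930260 and CALR at chr19:12938359-12938428, both on the plus strand.
HSPA5: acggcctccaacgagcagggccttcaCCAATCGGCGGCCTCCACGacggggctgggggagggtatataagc
HSP90B1: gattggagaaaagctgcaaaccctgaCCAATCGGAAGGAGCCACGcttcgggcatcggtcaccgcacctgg
CALR: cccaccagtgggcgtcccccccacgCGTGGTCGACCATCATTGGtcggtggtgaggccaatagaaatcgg
Their ratios were 0.62, -0.19 and 0.08 in that order. In this list 7 measured genes held the element, 5 of them above 0 with a median of 0.08, and 12 did not, 7 of them above 0 with a median of 0.07.

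Heat shock genes, here with mitochondrial chaperones and regulators included, had a median of -0.03 over 17 measured members, with the inducible pair HSPA1A and HSPA1B apart. HSPA1B had 10.08 with GANT61 and 9.31 with DMSO (1.70-fold higher), and HSPA1A had 7.90 with GANT61 and 7.37 with DMSO (1.44-fold higher). These 2 genes are near-identical copies, so their probes can read the same RNA. The factor that induces them, HSF1, had 6.29 with GANT61 and 6.65 with DMSO, and the mitochondrial chaperonin HSPD1 had ratios of -0.30 and -0.43 by 2 probes.

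Autophagy genes, the subject of the series title, lay slightly above 0. Of 51 listed genes 47 were measured, 32 above 0, with a median of 0.07, but 2 were past 0.32 and 5 past -0.32. All 6 genes of the ATG8 family, the ubiquitin-like proteins that coat the autophagosome, were above 0 with a median of 0.21. Among them GABARAPL1 had 7.91 with GANT61 and 7.61 with DMSO, and MAP1LC3B, the LC3 protein used as a marker of autophagosomes, had 9.53 with GANT61 and 9.28 with DMSO. Neither was past 0.32. One member of this family, MAP1LC3C, was detected on 1 array.

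All 7 measured cargo receptors were also above 0, with a median of 0.14. BNIP3L, a receptor for mitochondria, had 9.37 with GANT61 and 8.94 with DMSO (1.35-fold higher), and SQSTM1, the p62 receptor, had 11.58 with GANT61 and 11.35 with DMSO (1.18-fold higher). The protease ATG4A, which primes ATG8 proteins, was higher by both probes, with ratios of 0.34 and 0.49. The genes past -0.32 included ATG2A, which moves lipid to the growing membrane, with an intensity of 210.5 on the GANT61 array and 306.2 on the DMSO array (1.48-fold lower). ULK1, the kinase that starts autophagy, had -0.39 and -0.40 by 2 probes. The tethering factor TECPR1 had -0.37, and STX17, the fusion SNARE, was detected on 1 array. BECN1 of the lipid kinase complex had 0.15, about the spread of a probe.

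Lysosomal genes had a median of 0.05 over 37 measured of 38 listed, with 6 past 0.32 and 3 past -0.32. NEU1, the sialidase, had 8.65 with GANT61 and 7.96 with DMSO (1.61-fold higher). The membrane glycoprotein GPNMB had 6.90 with GANT61 and 6.35 with DMSO (1.47-fold higher), and the tetraspanin CD63 was 1.31-fold higher. The proton pump subunit ATP6V1A had a ratio of 0.33. The sulfatase ARSA (-0.44), the glucosidase GAA (-0.40) and the calcium channel MCOLN1 (-0.40) were lower. Hydrolases split evenly, 8 above 0 and 8 below, so the list did not move one way.

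Genes of DNA replication lay below 0 more often than above. Of 48 listed 44 were measured, 30 below 0 and 4 past -0.32, with a median of -0.08. The MCM helicase and origin licensing group had the lowest median, -0.18 over 15 genes. MCM5 had 8.94 with GANT61 and 9.50 with DMSO (1.48-fold lower), MCM4 had ratios of -0.30 and -0.10 by 2 probes, and MCM7 -0.20 and -0.36. POLD1, the catalytic subunit of polymerase delta, had an intensity of 206.3 with GANT61 and 304.3 with DMSO (1.51-fold lower), and the thymidylate synthase TYMS had 11.48 with GANT61 and 11.83 with DMSO (1.28-fold lower). The phosphatase CDC25A had the highest ratio at 0.32, and PCNA, the sliding clamp, had -0.05 and 0.06 by 2 probes.

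Mitotic genes showed no such shift. Of 45 listed 43 were measured, 17 above 0 and 25 below, with a median of -0.02, while the same list had a median of -1.35 over 43 genes in H4. The kinesin KIF4A had 8.71 with GANT61 and 8.25 with DMSO (1.38-fold higher), and the kinase PLK1 had 7.50 with GANT61 and 7.88 with DMSO (1.30-fold lower). The proliferation marker MKI67 had a ratio of 0.19, the topoisomerase TOP2A 0.03 and the mitotic kinase CDK1 -0.05. Of the inhibitors of cyclin-dependent kinases 5 of 6 measured were above 0, with CDKN1A, the p21 protein, at 0.22, CDKN1B at 0.13 and CDKN2A at -0.20, none past 0.32 or -0.32.

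Targets of p53 and genes of apoptosis were near the background. Of 20 measured p53 targets 11 were above 0 with a median of 0.04. The lowest were the stress genes GADD45A and GADD45B, with ratios of -0.64 and -0.51, and the highest the phosphatase TIGAR with 0.38. In the BCL2 family and the caspases 8 of 21 were above 0, with a median of -0.06. PMAIP1, the killer protein NOXA, had 6.65 with GANT61 and 7.10 with DMSO (1.36-fold lower), while the guardian MCL1 had -0.03 at its brightest probe and -0.56 at its second.

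Immediate early genes and the feedback genes of ERK signalling were nearly all below 0. Of 29 listed 24 were measured, 22 below 0, 5 past -0.32 and none past 0.32, with a median of -0.16. In EGR1 the log2 signal was 9.40 with GANT61 and 10.45 with DMSO. The factor KLF6 had 9.94 with GANT61 and 10.39 with DMSO, with -0.43 at its second probe. FOS had 6.33 with GANT61 and 6.71 with DMSO (1.30-fold lower), and JUN had a ratio of -0.21. The ERK phosphatase DUSP6 had -0.22 and -0.44 by 2 probes, DUSP5 -0.24, and the inhibitors SPRY2 and SPRED1 -0.09 and -0.17. The 2 members above 0 were FOSB, with a ratio of 0.31, and ETV5, a transcription factor of the ETS family, with 0.04. Of the EGF family the ligand HBEGF had 9.99 with GANT61 and 10.33 with DMSO (1.26-fold lower), and the receptor EGFR had -0.10. The same immediate early list had a median of 1.67 over 24 genes in H4.

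Of 24 inflammatory genes driven by NF-kB 15 were measured, 9 above 0, 5 past 0.32 and none past -0.32, with a median of 0.23. The 5 were IL24, with 0.84 at its brightest probe and -0.05 at its second, TNFAIP3, an inhibitor of NF-kB detected on 1 array, and 3 chemokines. CXCL8, which attracts neutrophils, had 11.55 with GANT61 and 11.21 with DMSO (1.26-fold higher), with 0.50 at its second probe. CXCL5 had 9.93 with GANT61 and 9.52 with DMSO, with 0.23 at its second probe, and CCL20 had 6.56 with GANT61 and 6.16 with DMSO. Without the filter on detection the median over the 24 listed genes was -0.022. The NF-kB subunits NFKB1 and NFKB2 themselves had ratios of -0.27 and -0.29. Interferon genes had 17 of 22 measured members above 0 and a median of 0.08, with IFIT1, which binds viral RNA, at 7.35 with GANT61 and 6.82 with DMSO (1.44-fold higher).

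Proteases, matrix and contractile genes held single large differences without a common direction. Among metalloproteinases and their inhibitors 8 of 14 were above 0. Besides MMP3, MMP1, the collagenase next to it on chromosome 11, had a ratio of -0.11, and the inhibitors went opposite ways. TIMP1 had 12.45 with GANT61 and 12.78 with DMSO, a ratio of -0.32, and TIMP2 had 10.35 with GANT61 and 9.91 with DMSO by 1 probe (1.35-fold higher) and 0.02 by the other. In the matrix SPARC had a ratio of 0.43, while LAMA5 (-0.75), AGRN (-0.40) and COL5A1 (-0.38) were lower. Of the actin genes the crosslinkers FLNC (-0.35) and ACTN1 (-0.31) were lower and the tropomyosin TPM1 was higher by both probes (0.37 and 0.39). YAP and TEAD targets had a median of -0.03, with ANKRD1 at -0.47 and CCN2 at -0.37 and -0.05 by 2 probes.

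In energy metabolism ALDOC of glycolysis and SDHC of oxidative phosphorylation were the genes past 1.5-fold, both higher. Glycolysis genes had 15 of 23 measured members below 0 and a median of -0.04, among them PFKL of phosphofructokinase at -0.42 and the mutase PGAM1 at -0.36 and -0.37 by 2 probes, while ALDOC had 9.38 with GANT61 and 8.44 with DMSO. Hypoxia targets outside glycolysis had a median of 0.07, with VEGFA at -0.37 and HIF1A at 0.34. Subunits of oxidative phosphorylation had 44 of 70 above 0 and a median of 0.03. Besides SDHC with its ratio of 0.63, NDUFV1 of complex I had 9.88 with GANT61 and 10.39 with DMSO (1.42-fold lower), and UQCRB of complex III had 9.32 with GANT61 and 8.91 with DMSO (1.33-fold higher). Mitochondrial ribosomal proteins (median 0.04 over 74), NRF2 targets (0.01 over 20) and cytosolic ribosomal proteins (0.01 over 75) were at the background.

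NAD synthesis and fucosylation were listed because QPRT and FUT8 were among the genes with the largest differences, so these 2 genes are no support for the list. Among the other fucosylation genes the kinase FCSK had a ratio of -0.32, POFUT2 had -0.29 and -0.26 by 2 probes and the GDP-fucose carrier SLC35C1 had -0.21, while POFUT1 had 0.14 and -0.23. The other measured NAD genes of the list ranged from -0.22 for the NAD kinase NADK to 0.22 for NMNAT1. The list leaves out the NAD-making enzyme NMNAT2, named above among the highest ratios. Its only detected probe had a ratio of 0.61, so the range does not cover every NAD gene. Metallothioneins, which bind zinc and copper, were above 0 in 6 of 6 measured genes, with MT1X at 10.77 with GANT61 and 10.41 with DMSO (1.29-fold higher) and MT2A at 13.92 with GANT61 and 13.63 with DMSO. Their sequences are close enough for probes to share signal, and 1 of the 6, MT1F, was detected on 1 array.

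Small non-coding RNAs of the ribosome, spliceosome and other particles had the highest median of the 47 lists. The lists were chosen with earlier results of these data known, and this one holds RNA5S9, so its rank is a description and no support. Of 21 listed 17 were measured, 13 above 0, 9 past 0.32 and none past -0.32, with a median of 0.41, or 0.29 when genes seen on a single array entered at their bounds. RN7SK, which restrains transcription elongation, had 8.22 with GANT61 and 7.66 with DMSO (1.47-fold higher). The Y RNA gene RNY1 had 7.39 with GANT61 and 6.91 with DMSO, and RNU1-1, the U1 RNA of the spliceosome, had 7.83 with GANT61 and 7.39 with DMSO. RN7SL1, the RNA of the signal recognition particle, had -0.07, and RPPH1, of RNase P, was detected on 1 array. By RefSeq class all 8 measured small nuclear RNA genes were above 0 with a median of 0.37, whereas 86 small nucleolar RNA genes had a median of -0.02. The listed small nucleolar RNAs SNORA12 and SNORD13, at 0.43 each, were thus not typical of their class. How such RNAs, most of which lack a poly(A) tail, were primed in the amplification was not tested.

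Splicing factors, by contrast, lay mostly below 0, with 27 of 40 measured members, 5 of them past -0.32 and 1 member past 0.32, and a median of -0.06. SF3B3 of the U2 particle had 7.74 with GANT61 and 8.29 with DMSO (1.46-fold lower), PRPF8 at the core of the spliceosome was 1.39-fold lower, and U2AF1 had -0.56 at its brightest probe and -0.16 at its second. SNRNP70, which binds the U1 RNA, had -0.37 and -0.26 by 2 probes. Proteasome subunits had 19 of 31 above 0 and a median of 0.08, with PSMB4 at 0.38 and PSMB7 at 0.37.

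**Figure D4:**
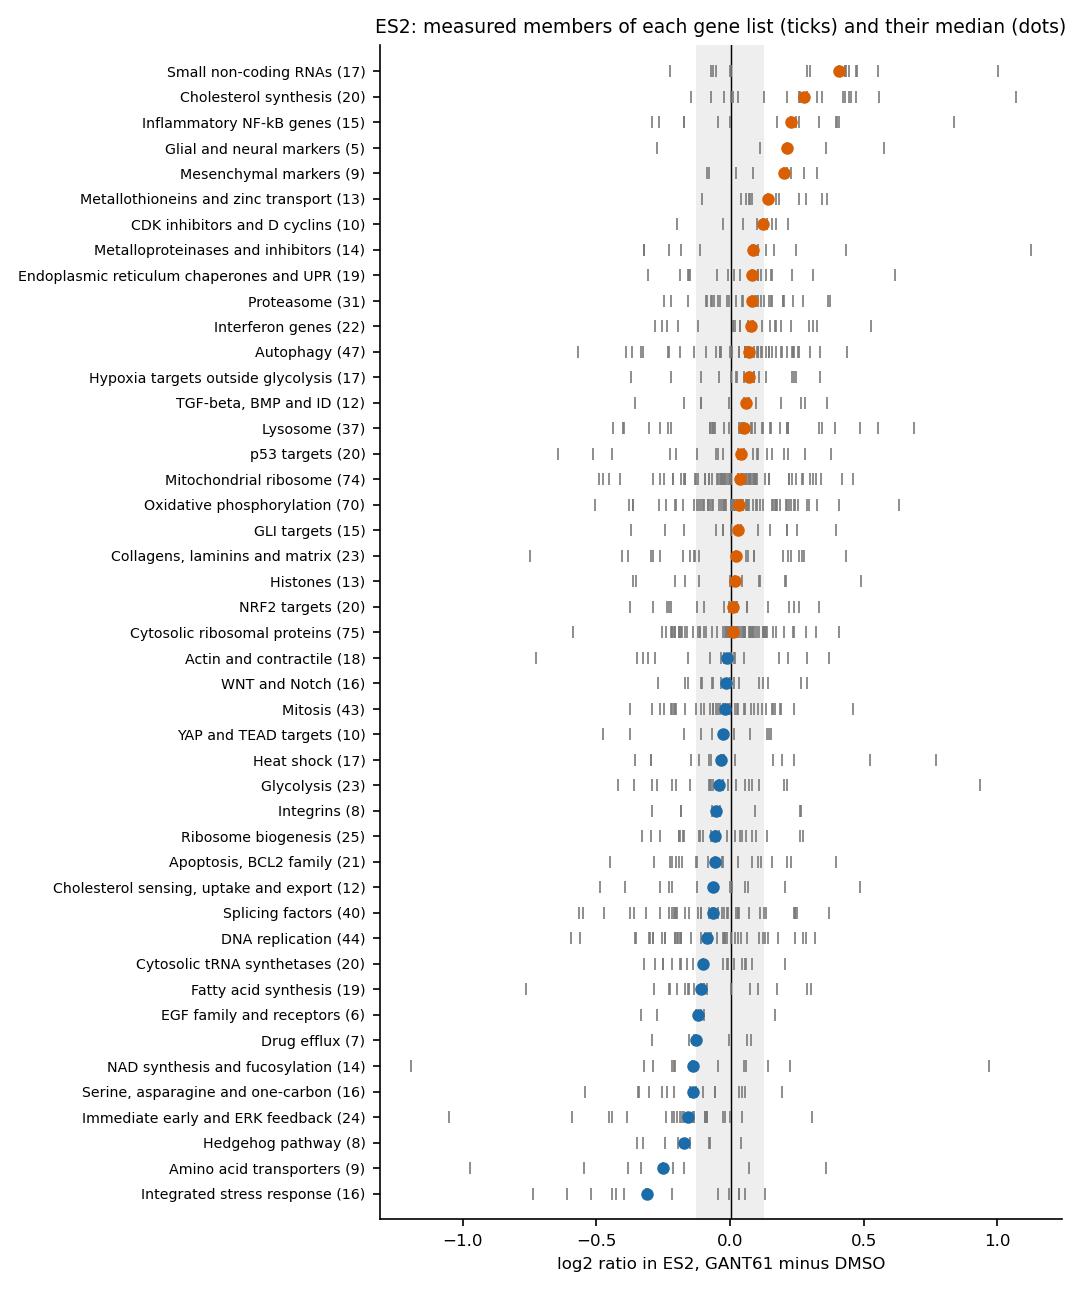
Log2 ratio in ES2 (GANT61 minus DMSO) of each measured member (ticks) and the median (dot, orange above 0 and blue below) of the gene lists with 5 or more measured members, numbers measured in parentheses, and the interquartile range of all genes (-0.13 to 0.13) in grey. The medians of small non-coding RNAs (0.41) and cholesterol synthesis (0.28) lie right of the grey band and those of the integrated stress response (-0.31), amino acid transporters (-0.25) and the Hedgehog pathway (-0.17) left of it.

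The ratios also differed by where genes lie. Of the measured genes 11016 had a chromosome in RefSeq. On chromosome 16, 60 of 504 genes were past -0.32 (11.9%) and 14 past 0.32 (2.78%), and on chromosome 19, 65 of 675 were past -0.32 (9.63%) and 18 past 0.32 (2.67%), beside 5.16% and 4.86% over all genes. The medians of these chromosomes were -0.07 and -0.08 in that order. At the other end chromosome 13 had a median of 0.05, with 3 of 202 genes lower (1.49%) and 11 higher (5.45%). On the authors' own scale the medians were nearly the same, -0.07, -0.08 and 0.04. Of the genes with the 25 lowest ratios, 6 are on chromosome 16, namely SLC7A5, UBALD1, WDR24, PRMT7, ANKRD11 and RPL13, and of those with the 25 highest QPRT is there.

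Promoter composition also moved with the ratios. The 8349 measured genes with a promoter window, too few of all genes for a check of the whole set, were put into 5 groups by their share of G and C. The group with the lowest share had a median of 0.04, with 6.77% of genes past 0.32 and 2.55% past -0.32. The group with the highest share had a median of -0.03, with 3.50% past 0.32 and 6.95% past -0.32. Chromosomes 16 and 19 had median promoter GC of 67.7% and 64.3%, beside 65.3% on chromosome 13. Over the chromosomes with such a median, Spearman's rho between median promoter GC and median ratio was -0.645. Over single genes rho was -0.118. With the median of each gene's GC group subtracted, the integrated stress response had -0.30, the amino acid transporters -0.27 and the Hedgehog pathway -0.19. That calculation was added after seeing the data and covers the members with a window. Medians of the same members without it were -0.31, -0.29 and -0.15 in that order. The part of promoter composition in the list medians was not tested further, and for cholesterol synthesis the calculation is void, because 15 of its 20 measured genes (75%) have a window.

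**Figure D5:**
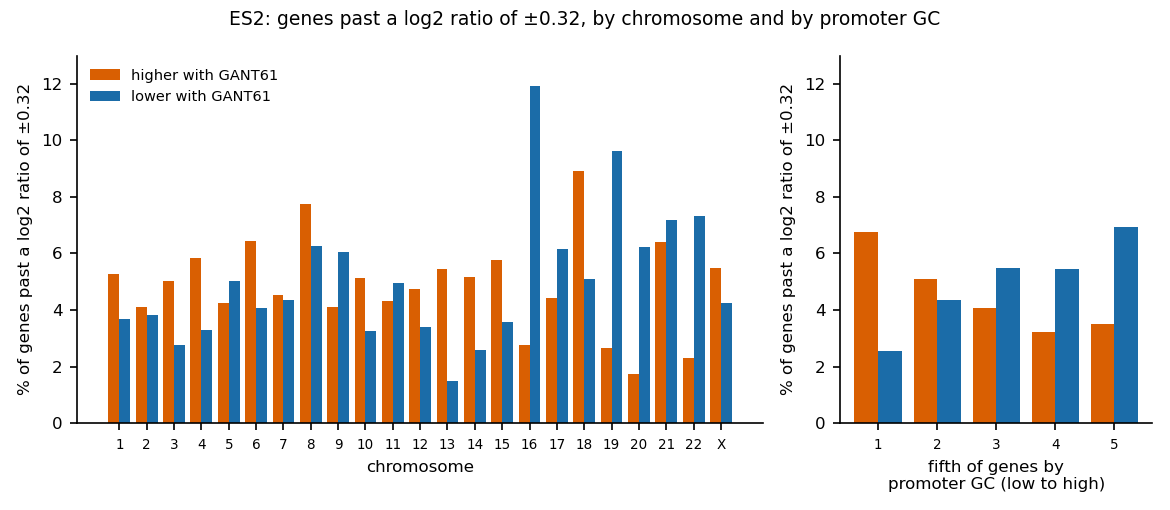
Share of measured ES2 genes past a log2 ratio (GANT61 minus DMSO) of 0.32 (orange) and of -0.32 (blue), in percent, by chromosome on the left and by 5 groups of genes ordered by promoter GC on the right. Blue bars exceed orange most on chromosomes 16 and 19, and across the groups the orange share goes from 6.77% to 3.50% while the blue share goes from 2.55% to 6.95%.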

How the data were processed

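RNA of ES2 and H4 cells given GANT61 or DMSO was measured on 4 Illumina HumanHT-12 V4 arrays, 1 per group by title, which limits the precision of every value. Per the labels' protocols, biotin-labelled cRNA was hybridized and scanned with Illumina's reader. The array software is not given in the sources used here. The authors' deposited table holds 1 intensity per probe on a linear scale. Its sorted values differ between the ES2 arrays by a median of 0.00457%, so they carry a quantile normalization within the line. The lowest is 35.7, with no sign of background subtraction. A second deposited table gives a detection p-value per probe. Its 4 signal columns name no treatment and were not used, and its p-values served to count on how many ES2 arrays a probe was detected at p under 0.01.

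The intensities were background-corrected with normexp (offset 16), quantile-normalized over the 4 arrays in limma 3.58.1 (R 4.3.3) and taken to log2. An offset pulls dim ratios toward 0, and quantile normalization removes a change that all genes share. Names came from the RefSeq gene table of GRCh38.p14, by which 27035 probes had a current symbol, 4626 a synonym, 3485 a gene number and 9 a former symbol matched by hand, while 8750 kept the file's name, 3270 had none and 54 were dates. For a gene seen on a single array the text gives a bound, for which the lower signal was raised to the lowest of genes detected on both. The scaling was tested on simulated data.

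The members and the 47 gene lists were chosen with earlier results of these data known. Named genes are the 25 highest and 25 lowest ratios among genes detected on both arrays, the 3 largest bounds each way, the up to 8 largest ratios and preset key genes of each list, all Hedgehog genes and the markers. Alternatives changed the background correction, scaling, probe rule and detection filter. Some members are counted in their lists but their own values are not reported here.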

Additional observations from a re-analysis of the deposited data

Results flagged for a closer look

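Some ES2 ratios had the opposite sign to those of H4, with 1 pair of arrays per line, and the difference between the lines was not tested. Both lines' values are given side by side. The integrated stress response had a median of -0.31 in ES2, beside 0.42 in H4, and the amino acid transporters one of -0.25 in ES2, beside 0.61 in H4. Mesenchymal markers had a median of 0.20 in ES2, beside -1.07 in H4. The ES2 value was 0.09 when genes seen on a single array entered at their bounds. Each median covers the genes measured in that line, here 9 in ES2 and 12 in H4, so the 2 medians do not compare the same genes. Among the markers measured in both lines, H4 ratios ran from -1.25 for COL1A1 to 0.25 for CDH2, with -0.04 for VIM.

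Among the genes with the largest ES2 ratios, the amino acid carrier SLC7A5 had -0.97 in ES2 and 0.89 in H4, PPP1R15A -0.74 in ES2 and 1.74 in H4, GADD45A -0.64 in ES2 and 1.08 in H4, and PHLDA1 -0.59 in ES2 and 1.86 in H4. For PHLDA1 the second ES2 probe had 0.09. BEX1 had 0.66 in ES2 and -0.66 in H4, and SDHC 0.63 in ES2 and -0.62 in H4.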

How the results depend on the processing

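Counts of genes past a fold depended on the background correction, the scaling between arrays and the detection filter. With genes 1.5-fold higher, 1.5-fold lower, 2-fold higher and 2-fold lower in that order, the counts of 42, 37, 5 and 4 became 16, 9, 1 and 1 without background correction, 18, 12, 1 and 1 with an offset of 50, and 23, 20, 2 and 2 on the deposited values. They were 28, 24, 3 and 2 both when genes seen on a single array were left out and when they entered at their bounds. At 1.5-fold, 76 and 76 genes passed with the ES2 arrays scaled alone, 77 and 75 with median scaling, and 79 and 74 at a detection p under 0.05. Without the detection filter the 4 counts were 643, 630, 52 and 42, most of the added probes being undetected. Of the 50 named genes 27 were below 1.5-fold without background correction and 12 with the mean of detected probes, and none changed sign. List medians kept their sign where they were 0.1 or more from 0, except NF-kB genes without the filter (-0.022) and drug efflux genes detected on both arrays (0.030). The cause was not tested. Müllerian markers moved to -0.25 at p under 0.05 and glial markers to 0.05 without the filter. Subtracting promoter GC medians, chosen after seeing the data, turned no such median among the 32 lists it could be applied to. No paired analysis was possible because each group has 1 array. Signals near background and the number of arrays limit single ratios of any size. Those below about 0.3 were also hard to tell from the spread between probes.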

Other observations

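The ubiquitin gene UBB, which lies outside the naming rule and was chosen after its values were seen, had log2 signals of 14.08 on the GANT61 array and 13.47 on the DMSO array by its brightest probe, a ratio of 0.61, and a ratio of 0.13 by its second probe. ALDOC and FUT8, near the ends of the ES2 ranking and noted here after their values were seen, hold an element searched for other lists: the window of ALDOC holds the sterol regulatory element TCACNCCAC, found in 1.13% of the 34961 windows, and a window of FUT8 holds TGATGNAA, found in 3.62%. The 110 measured genes with the sterol element had a median of 0.03, and 8239 without it a median of 0.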
